A study of Mus musculus with 6 samples.

Results

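The prostaglandin genes examined here are 10 genes for the synthesis, sensing and breakdown of prostaglandins: the phospholipase gene Pla2g4a, the cyclooxygenase genes Ptgs1 and Ptgs2, the terminal synthase genes Ptges, Ptges2, Ptges3 and Ptgis, the receptor genes Ptger2 and Ptger4, and the dehydrogenase gene Hpgd. They were chosen by gene symbol, with earlier results of these data known. All 10 have a row among the 47480 genes of the deposited expression table. The libraries hold RNA of neonatal mouse chondrocytes in primary culture, that is, cartilage cells. The WT group are C57BL/6 mice, and the A2ARKO group are mice on the same background with a global loss of the adenosine receptor A2AR, the product of Adora2a. Each of the 3 libraries of a group is RNA pooled from the trypsinized cells of 1 whole litter, so a replicate is a litter, and the error used in every test is that between litters. The labels give no treatment, no exact age and no batch. The comparison was set up to look for drivers of osteoarthritis, the joint disease in which cartilage is lost.

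Prostaglandins are lipid signals made from arachidonic acid. A phospholipase frees the fatty acid from membranes, a cyclooxygenase turns it into a common precursor, and terminal synthases turn that precursor into prostaglandin E2, prostacyclin and other products. Cells read prostaglandin E2 through receptors on their surface, and a dehydrogenase inactivates it after uptake. In cartilage, Ptgs2 and Ptges are known as the inducible pair behind the prostaglandin E2 of inflamed joints, and the receptors encoded by Ptger2 and Ptger4 raise cyclic AMP as A2AR does.

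Expression is given as FPKM, the fragments assigned to a gene scaled by its length and by the size of the library. Levels of different genes can be compared only roughly, because the gene lengths used are not given. Differences are A2ARKO minus WT on the scale log2(FPKM + 1), where the change of a low gene appears smaller than it is, and a gene was called at a limma adjusted p below 0.05. Of the 10 genes, 9 reached 1 FPKM in at least 3 of the 6 libraries and were tested, and Ptger2 did not. Ptgs2, Ptges and Ptges2 rose in A2ARKO chondrocytes, 0 of the 9 fell and 6 did not pass. Over all 11595 genes tested, 3.31% were called higher (384 genes) and 1.77% lower (205 genes), 5.08% in all. Rescaling the libraries to the same sum changed the split from 384 higher and 205 lower (65.2% higher) to 178 and 170 (51.2%), and quantile normalization to 302 and 259 (53.8%). The first moved the median difference of all genes to -0.098. The median difference was 0.44 over the 9 genes and 0.002 over all genes tested.

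The regions just before the transcription starts of the 3 genes that rose and of Ptgs1, the cyclooxygenase gene whose group means were nearly equal, are shown so that the start regions of genes that rose can be read beside that of one that did not pass. RefSeq gave such a window for 9 of the 10 genes. Each line holds the 250 bases before the RefSeq start on GRCm38.p6, written 5′ to 3′ on the gene's strand. These are chr1:150099781-150100030 (plus strand) for Ptgs2, chr2:30903298-30903547 (minus strand) for Ptges, chr2:32395640-32395889 (plus strand) for Ptges2 and chr2:36230176-36230425 (plus strand) for Ptgs1. Capitals mark every match to one of 9 motifs.
Ptgs2: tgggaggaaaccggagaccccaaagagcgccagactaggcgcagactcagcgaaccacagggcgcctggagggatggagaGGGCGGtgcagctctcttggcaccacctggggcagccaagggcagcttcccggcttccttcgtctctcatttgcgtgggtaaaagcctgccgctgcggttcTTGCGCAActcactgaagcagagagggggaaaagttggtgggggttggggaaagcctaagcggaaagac
Ptges: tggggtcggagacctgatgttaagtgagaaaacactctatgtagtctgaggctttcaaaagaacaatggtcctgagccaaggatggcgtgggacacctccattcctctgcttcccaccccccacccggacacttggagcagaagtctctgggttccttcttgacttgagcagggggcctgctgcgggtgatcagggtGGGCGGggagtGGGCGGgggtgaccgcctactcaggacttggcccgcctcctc
Ptges2: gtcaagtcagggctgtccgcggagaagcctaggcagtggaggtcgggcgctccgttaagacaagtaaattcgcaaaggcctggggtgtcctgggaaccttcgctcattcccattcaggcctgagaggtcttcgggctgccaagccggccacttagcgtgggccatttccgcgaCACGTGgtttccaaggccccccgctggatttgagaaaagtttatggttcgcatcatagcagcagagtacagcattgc
Ptgs1: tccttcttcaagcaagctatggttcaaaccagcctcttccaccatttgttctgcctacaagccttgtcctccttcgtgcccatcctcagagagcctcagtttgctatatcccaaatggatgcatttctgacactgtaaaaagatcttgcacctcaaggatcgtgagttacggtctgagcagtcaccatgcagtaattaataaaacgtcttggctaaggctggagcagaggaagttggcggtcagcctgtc

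The motifs were searched on both strands from 250 bases before to 50 bases after the start, in all 32851 RefSeq windows of that size. Ptgs2 holds the C/EBP palindrome TTGCGCAA at 69 to 62 bases before its start, a match present in 0.18% of all windows (60 windows). It also holds 1 GC box (GGGCGG, in 35.7% of windows). After its start lie a short form of the cyclic AMP response element (TGACG on the opposite strand, in 20.8% of windows) at bases 14 to 18 and an E-box (CACGTG, in 7.15%) at bases 17 to 22, which overlap. That stretch is chr1:150100033-150100062 on the plus strand, with both matches in capitals.
Ptgs2 after the start: agtcaccactaCGTCACGTGgagtccgctt

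Ptges holds 2 GC boxes, at 53 to 48 and 42 to 37 bases before its start, and Ptges2 holds 1 E-box at 77 to 72 bases before its start. Ptgs1 holds 0 matches. None of these 4 windows matched AP-1 (TGANTCA, in 7.81% of windows), the TATA box (TATAAA, 13.6%), STAT (TTCNNNGAA, 8.3%), EGR1 (GCGNGGGCG, 5.55%) or the NF-kappaB decamer (8.46%). No motif matched in all of Ptgs2, Ptges and Ptges2: the GC box occurred in Ptgs2 and Ptges, and the E-box in Ptgs2 and Ptges2. Ptgs1 does not stand for the other genes that did not pass. Ptges3 held 4 GC boxes, 1 short cyclic AMP element and 1 NF-kappaB match, and Ptger4 held 4 GC boxes. Hpgd held 1 GC box and 1 TATA box, the latter after its start, at bases 5 to 10. Pla2g4a held 1 TATA box, at positions -200 to -195 (minus marks bases before the start) of its second RefSeq window. Its first window held no match. The untested Ptger2 held no match. Outside the 10 genes, Slco2a1 and Akr1c18, which both rose and are described below, held 1 GC box each. Slco2a1 also held 1 TATA box, at positions -29 to -24. The GC box and the short cyclic AMP element were thus not limited to genes that rose, and the TATA box was not limited to genes that did not pass. A match is a run of letters and not a measured binding site, and sites farther from the start were not searched.

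The labels and the make-up of the libraries were checked first. Adora2a read 9.36, 7.31 and 3.46 FPKM in WT replicates 1, 2 and 3 and 0.41, 0.54 and 0.66 FPKM in A2ARKO, so every A2ARKO library lay below every WT library (log2 difference -2.25, SE 0.309, limma adjusted p = 0.0203). Permuting the labels in every way (exact, two-sided) yielded p = 0.1, the lowest value that groups of 3 permit. Adora2a passed the filter through the WT libraries alone, and with no filter the limma adjusted p was 0.0533. The call was also lost without WT replicate 2 or any 1 A2ARKO library (limma adjusted p of 0.0582, 0.0824, 0.0955 and 0.0864). The sources used here do not say which exons were deleted. Chondrocyte markers (12 of 14 listed had a row, and all 12 were tested) summed to 25880, 1343 and 488.9 FPKM in WT replicates 1, 2 and 3 and to 2257, 4540 and 6374 FPKM in A2ARKO, with 0 of 12 called. WT replicate 1 therefore stood far above the others in cartilage genes. The same library stood apart in osteoblast markers, which summed to 503.5 FPKM there against 9.71 to 70.3 FPKM elsewhere (0 of 4 tested called). Markers of macrophages and other leukocytes (14 of 14 with a row) summed to 187.8, 1960 and 136.6 FPKM in WT against to 54.23, 30.6 and 26.72 FPKM in A2ARKO, with 0 of 12 tested called and a median difference of -2.49. None of those 14 was at 0 in all libraries. Lyz2 alone gave 127.7, 1433.6 and 103.9 FPKM of the WT sums. Cd14 did not share the lower values, at 4.14, 23.04 and 4.39 FPKM in WT against 7.76, 8.22 and 9.49 FPKM in A2ARKO (log2 difference 0.116). WT replicate 2 was also the one with skeletal muscle markers, at 754.6 FPKM against 5.15 to 21.96 FPKM elsewhere. Fibroblast markers summed to 6769 to 9397 FPKM in WT against 3432 to 4876 FPKM in A2ARKO (1 of 9 called, lower). Most of that sum came from Col1a1, Col1a2 and Col3a1, and Postn and the called gene Dpt also had lower means. Dcn went the other way, from a mean of 302 to 696 FPKM. Lum (212 and 224 FPKM), Pdgfra (43.7 and 42.8) and Thy1 (79.1 and 85.4) had similar means in WT and A2ARKO. Single markers of these lists are named after their values were seen. Mast cell, endothelial and erythroid markers stayed at or below 1.51 FPKM in sum in every library, and platelet markers summed to 22.15 FPKM in WT replicate 2 and to 2.59 to 4.71 FPKM elsewhere. In such bulk samples, fewer cells of a type and less RNA per cell cannot be told apart.

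**Figure D1:**
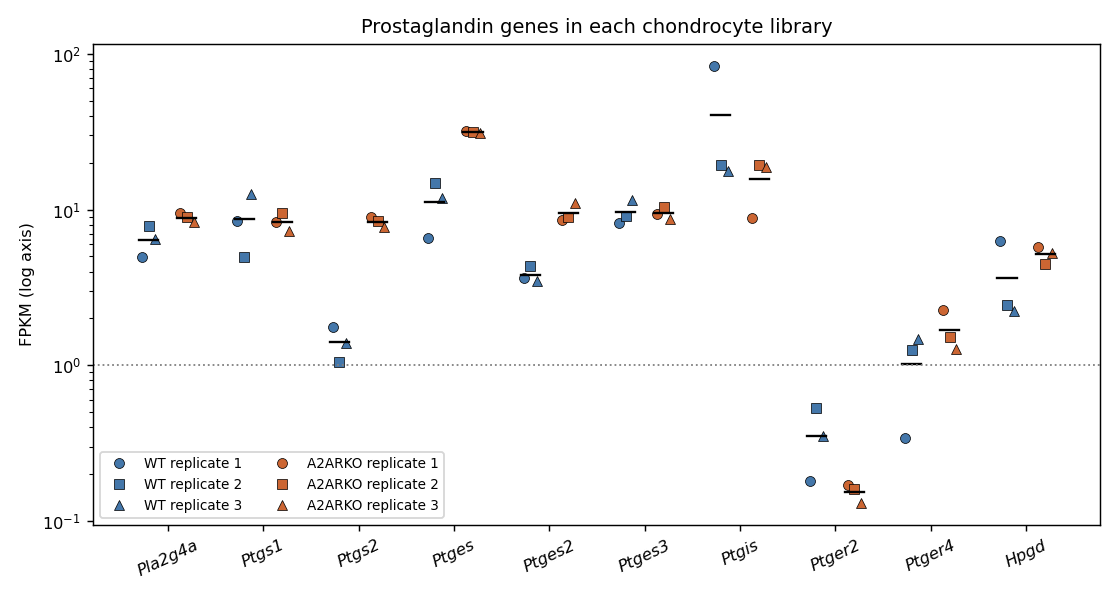
FPKM (log axis) of the 10 prostaglandin genes in each library, with WT in blue, A2ARKO in orange, 1 symbol per replicate and a black line at each group's mean. The dotted line is 1 FPKM, and the A2ARKO points of Ptgs2, Ptges and Ptges2 all lie above the WT points, while those of Ptgs1 and Ptges3 lie among them.

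The first step of the pathway was slightly higher in every A2ARKO library without passing the test. Pla2g4a encodes cytosolic phospholipase A2, the enzyme that frees arachidonic acid. Its level was 4.94, 7.84 and 6.43 FPKM in the WT libraries against 9.47, 8.92 and 8.28 FPKM in the A2ARKO libraries. The groups did not overlap, as was also so for Ptgs2, Ptges and Ptges2: A2ARKO lay wholly higher for 4 of the 9 tested prostaglandin genes and wholly lower for 0, against 18.0% and 14.9% of all genes tested. The log2 difference was 0.435 with a 95% interval of 0.057 to 0.813 (limma adjusted p = 0.157, unadjusted 0.0305). The gene is on mm10 chromosome 1 (149829618 to 149961290, minus strand), 138.7 kb from Ptgs2 (150100031 to 150108227, plus strand), and the genes are transcribed away from each other.

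Of the cyclooxygenase genes, the inducible Ptgs2 rose and the constitutive Ptgs1 did not pass. Ptgs2 read 1.76, 1.05 and 1.39 FPKM in WT against 8.96, 8.41 and 7.70 FPKM in A2ARKO. Each A2ARKO library was thus several times above each WT library, and the spread within either group was small beside the gap. The mean rose from 1.40 ± 0.355 to 8.36 ± 0.632 FPKM (SD, n = 3), 5.97-fold, with a log2 difference of 1.97 and an SE of 0.131 (limma adjusted p = 0.00319). Ptgs2 was still called in each of the 6 fits that leave out a library (adjusted p from 0.00575 to 0.032). About 240 to 335 reads lay behind the WT values and about 1862 to 2247 behind the A2ARKO values, so counting error was minor.

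Ptgs1 read 8.41, 4.96 and 12.5 FPKM in WT against 8.28, 9.47 and 7.29 FPKM in A2ARKO. The A2ARKO libraries lay within the WT range. Its log2 difference was 0.028 with a 95% interval of -0.691 to 0.748 (limma adjusted p = 0.967), and its sign turned under other scalings, to -0.015 with quantile normalization and -0.079 after rescaling to the same sum. In A2ARKO the levels of Ptgs2 (7.70 to 8.96 FPKM) and Ptgs1 (7.29 to 9.47 FPKM) overlapped, whereas in WT Ptgs1 was above Ptgs2 in every library. Ptgs2 made up 17.3%, 17.5% and 9.98% of the FPKM of both genes in WT and 52.0%, 47.0% and 51.4% in A2ARKO, given as a description with no test. The sum of both genes was 10.2, 6.01 and 13.9 FPKM in WT against 17.2, 17.9 and 15.0 FPKM in A2ARKO.

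Next come 2 noncoding genes named for Ptgs2, looked at after their values were seen. Ptgs2os begins 67 bases from Ptgs2 on the opposite strand. It read 0.04, 0.04 and 0.07 FPKM in WT against 0.18, 0.10 and 0.14 FPKM in A2ARKO. Ptgs2os2 lies farther off on mm10 chromosome 1, at 150159043 to 150164948 (minus strand), while Ptgs2 ends at 150108227. Ptgs2os2 read 0.01, 0.29 and 0.28 FPKM in WT against 1.07, 0.75 and 0.79 FPKM in A2ARKO. Both lay higher in every A2ARKO library, as did 18.0% of all genes tested. Both were under the filter, and neither passed with no filter (limma adjusted p of 0.157 and 0.0971). At most about 96 reads lay behind any of these values.

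Among the terminal synthases, Ptges and Ptges2 rose. Ptges encodes microsomal prostaglandin E synthase 1, the inducible enzyme that works beside cyclooxygenase 2. Its level was 6.61, 14.8 and 11.9 FPKM in WT against 31.9, 31.7 and 31.2 FPKM in A2ARKO. The lowest A2ARKO library lay far above the highest WT library, and the A2ARKO libraries were nearly equal. The mean rose from 11.1 ± 4.15 to 31.6 ± 0.366 FPKM (SD, n = 3), 2.85-fold, with a log2 difference of 1.49 and an SE of 0.263 (limma adjusted p = 0.0366). The call rested on particular libraries: the adjusted p was 0.0524 without WT replicate 3 and 0.124, 0.150 and 0.142 without A2ARKO replicates 1, 2 and 3. It was also 0.0825 with no filter and 0.0708 under same-sum rescaling, at log2 differences of 1.49 and 1.38. Of the 3 genes named for prostaglandin E synthases, Ptges held 35.9%, 52.4% and 44.3% of their summed FPKM in WT against 64.1%, 62.2% and 61.3% in A2ARKO (no test). These shares carry the uncertainty of the Ptges3 level, and the WT means of Ptges (11.1 FPKM) and Ptges3 (9.61 FPKM) cannot be ranked. In WT replicate 1 itself, Ptges3 at 8.20 FPKM was above Ptges at 6.61 FPKM.

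Ptges2 encodes a second membrane-associated prostaglandin E synthase, usually described as constitutive. It read 3.63, 4.34 and 3.46 FPKM in WT against 8.57, 8.91 and 11.1 FPKM in A2ARKO, without overlap. The mean rose from 3.81 ± 0.467 to 9.51 ± 1.35 FPKM (SD, n = 3), 2.50-fold, with a log2 difference of 1.12 and an SE of 0.125 (limma adjusted p = 0.0119). Without A2ARKO replicates 2 and 3 the adjusted p was 0.0649 and 0.0525. Ptges2 lies on mm10 chromosome 2 (32395896 to 32405772, plus strand), 7.6 kb from Lcn2 (32384633 to 32388252, minus strand), which is transcribed away from it. Lcn2, the gene of a secreted lipocalin, read 12.5, 31.5 and 12.8 FPKM in WT against 1612, 2415 and 4000 FPKM in A2ARKO. Farther on that side lies 1110008P14Rik, about 14 kb from Ptges2, which read 7.98, 9.56 and 4.92 FPKM in WT against 21.7, 23.6 and 26.4 FPKM in A2ARKO. Ptges2 thus stood beside 2 neighbours that were also higher in every A2ARKO library (limma adjusted p of 0.00319 for Lcn2 and 0.0207 for 1110008P14Rik), and both were named after their values were seen. Of all genes tested, 18.0% lay wholly higher in A2ARKO. With no filter the limma adjusted p of 1110008P14Rik was 0.0516, and 27.0% of its exon bases overlap Ciz1 on the opposite strand. Ciz1 did not share the rise, at 6.55, 7.77 and 7.52 FPKM in WT against 8.74, 7.59 and 7.68 FPKM in A2ARKO, with overlapping groups. No exon of Ptges2 overlaps an annotated exon of another gene.

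Ptges3 encodes the co-chaperone p23, which also has prostaglandin E synthase activity in the cytosol. It read 8.20, 9.07 and 11.6 FPKM in WT against 9.30, 10.4 and 8.67 FPKM in A2ARKO, with overlapping groups. The log2 difference was -0.012 with a 95% interval of -0.349 to 0.324 (limma adjusted p = 0.97). The level itself is uncertain, because 22.3% of the stretches of 50 bases in its longest coding transcript also occur in 2 other annotated genes, named Ptges3-ps and Gm11893. For comparison, Gapdh shares 82.5% of such stretches with other genes and was listed at 1.04 to 2.99 FPKM, while Actb shares 14.2% and was listed at 455 to 713 FPKM. Ptgs2, Ptges, Ptgis, Pla2g4a, Ptger4 and Hpgd share 0%, Ptges2 shares 0.32%, Ptgs1 3.58% and Ptger2 5.5%.

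Ptgis encodes prostacyclin synthase, the enzyme of the other main branch of the pathway. Its level was 83.9, 19.3 and 17.8 FPKM in WT against 8.81, 19.3 and 18.9 FPKM in A2ARKO. WT replicate 1 stood alone at the top, and the other 5 libraries lay between 8.81 and 19.3 FPKM. The log2 difference of -1.01 had a 95% interval of -2.57 to 0.549 (limma adjusted p = 0.385), and it was -0.304 without WT replicate 1. That library also had the highest sums of chondrocyte and of osteoblast markers, and the part of either in the Ptgis value was not tested. Ptgis was the most abundant of the 10 genes in each WT library, and Ptges was above it in each A2ARKO library.

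**Figure D2:**
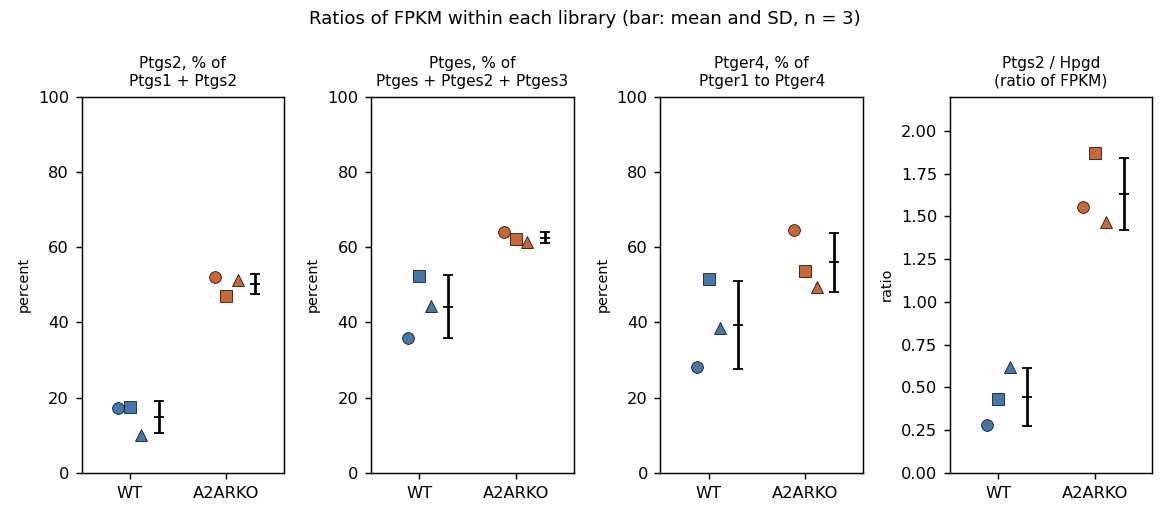
Ratios of FPKM within each library in WT (blue) and A2ARKO (orange), 1 symbol per replicate, with the mean and SD of 3 libraries beside them. The share of Ptgs2 in both cyclooxygenase genes is 9.98% to 17.5% in WT and 47.0% to 52.0% in A2ARKO, while the shares of Ptger4 overlap between the groups.

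The receptor genes were low in both groups. Ptger4 encodes the EP4 receptor, and read 0.34, 1.26 and 1.47 FPKM in WT against 2.25, 1.52 and 1.28 FPKM in A2ARKO. WT replicate 1 was lowest and the groups overlapped, with a log2 difference of 0.44 and a 95% interval of -0.213 to 1.09 (limma adjusted p = 0.368). Without WT replicate 1 the log2 difference was 0.167. Of the exon bases of Ptger4, 1.23% overlap those of Ttc33 on the opposite strand, which read 8.04 to 9.55 FPKM, and 15.3% overlap the pseudogene Gm15937, at 0 to 0.05 FPKM. Without a stated strand setting such reads cannot be told apart. Ptger2, the gene of the EP2 receptor, read 0.18, 0.53 and 0.35 FPKM in WT against 0.17, 0.16 and 0.13 FPKM in A2ARKO. It was lower in every A2ARKO library, but WT replicate 1 and A2ARKO replicate 1 differed only by 0.01 FPKM, with about 39 and 45 reads behind them. Ptger2 was under the filter and did not pass with no filter (log2 difference -0.223, limma adjusted p = 0.352). Part of its exon bases, 4.74%, overlap Gm17173 on the opposite strand, at 0.04 to 0.34 FPKM.

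Among the 4 genes of prostaglandin E2 receptors, Ptger4 held 28.1%, 51.4% and 38.4% of the summed FPKM in WT against 64.7%, 53.7% and 49.4% in A2ARKO, with overlapping groups. The sum itself was 1.21, 2.45 and 3.83 FPKM in WT against 3.48, 2.83 and 2.59 FPKM in A2ARKO. The other members of that sum, Ptger1 and Ptger3, had means of 0.950 ± 0.788 and 0.170 ± 0.0173 FPKM in WT against 1.01 ± 0.139 and 0.120 ± 0.0781 FPKM in A2ARKO (SD, n = 3).

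Hpgd encodes the dehydrogenase that inactivates prostaglandin E2. It read 6.29, 2.42 and 2.24 FPKM in WT against 5.76, 4.50 and 5.25 FPKM in A2ARKO. WT replicate 1 was the highest library of all, while WT replicates 2 and 3 were the lowest. The log2 difference was 0.508 with a 95% interval of -0.274 to 1.29 (limma adjusted p = 0.383). Without WT replicate 1 it was 0.885 and passed (limma adjusted p = 0.0212). The result thus depends on that library, the one with the highest chondrocyte and osteoblast marker sums. In that fit the remaining WT libraries had chondrocyte sums of 1343 and 488.9 FPKM, below every A2ARKO library (2257 to 6374 FPKM). The part of this in the Hpgd difference was not tested. The ratio of Ptgs2 to Hpgd was 0.280, 0.434 and 0.621 in WT and 1.56, 1.87 and 1.47 in A2ARKO. Ptgs2 was therefore below Hpgd in each WT library and above it in each A2ARKO library, given with no test.

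**Figure D3:**
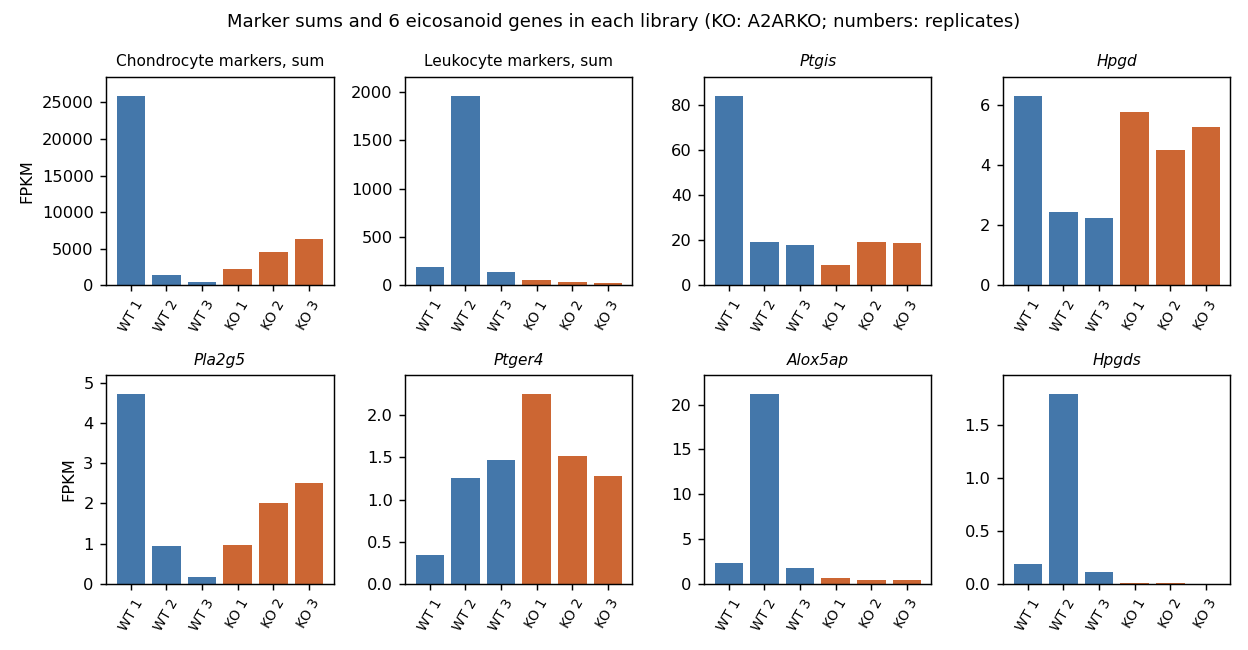
Bars of FPKM in each library for the summed markers of chondrocytes and of leukocytes and for 6 genes of the pathway, with WT in blue and A2ARKO in orange. Ptgis and Pla2g5 (a phospholipase gene chosen after its values were seen) are highest and Ptger4 is lowest in WT replicate 1, where chondrocyte markers peak at 25880 FPKM, and Alox5ap and Hpgds are highest in WT replicate 2, where leukocyte markers peak at 1960 FPKM.

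In the order of mean levels, WT ran from Ptgis (40.3 FPKM) through Ptges (11.1), Ptges3 (9.61), Ptgs1 (8.64), Pla2g4a (6.40), Ptges2 (3.81), Hpgd (3.65) and Ptgs2 (1.40) to Ptger4 (1.02) and Ptger2 (0.353). In A2ARKO it ran from Ptges (31.6 FPKM) through Ptgis (15.6), Ptges2 (9.51), Ptges3 (9.45), Pla2g4a (8.89), Ptgs2 (8.36), Ptgs1 (8.35) and Hpgd (5.17) to Ptger4 (1.68) and Ptger2 (0.153). In WT the ranges of neighbours overlapped from Ptges to Pla2g4a, for Ptges2 with Hpgd, and from Ptgs2 to Ptger2, while Ptgis stood above Ptges in range. In A2ARKO they overlapped from Ptgis to Ptgs1, while Ptges, Hpgd, Ptger4 and Ptger2 stood apart in range from the genes beside them. Ptges, Ptges2 and Ptgs2 thus took higher places in the A2ARKO order, though Ptgs2 and Ptgs1 were within their spread of each other there.

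A wider list of 54 genes of eicosanoid biology, written from general knowledge, places these results in the pathway. Of the 54, 29 were tested and 25 were under the filter. The tested genes comprised 5 called higher, 0 called lower and 24 that did not pass, beside 3.31% higher and 1.77% lower over all genes tested, with a median difference of 0.234. With no filter, or after rescaling to equal sums, 2 were called, both higher. With 1 library left out, the number called higher ranged from 0 to 4.

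Of 6 tested genes for transport and breakdown, Slco2a1 and Slco3a1 rose. Slco2a1 encodes the prostaglandin transporter that takes prostaglandin E2 into cells before its breakdown. It read 2.28, 3.20 and 5.03 FPKM in WT against 18.0, 18.7 and 16.6 FPKM in A2ARKO, with no overlap. The mean rose from 3.50 ± 1.40 to 17.8 ± 1.05 FPKM (SD, n = 3), 5.08-fold, with a log2 difference of 2.10 and an SE of 0.220 (limma adjusted p = 0.0109). The adjusted p was 0.0533, 0.0629 and 0.0547 without A2ARKO replicates 1, 2 and 3. Slco3a1, which encodes an organic anion transporter that also carries prostaglandins, rose from 3.82 ± 0.596 to 6.87 ± 0.345 FPKM (log2 difference 0.715, limma adjusted p = 0.0302). Slco3a1 lost the call without A2ARKO replicates 1, 2 and 3 (0.107, 0.126 and 0.129), with no filter (0.068) and under same-sum rescaling (0.0849). The other 4 genes of transport and breakdown did not pass, among them the export pump gene Abcc4, named after its values were seen. Abcc4 read 8.89, 3.60 and 3.41 FPKM in WT against 6.74, 8.02 and 8.31 FPKM in A2ARKO. With all libraries its log2 difference was 0.565 (limma adjusted p = 0.334). Like Hpgd it passed without WT replicate 1 (log2 difference 0.944, limma adjusted p = 0.0178). In that fit, too, every remaining WT library had a lower chondrocyte marker sum than every A2ARKO library, and the part of this was not tested.

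Among 10 tested genes for the release and handling of arachidonic acid, Anxa1 rose and 9 did not pass. Anxa1 encodes annexin A1, known as an inhibitor of phospholipase A2 activity, and went from 155 ± 29.6 to 299.5 ± 34.9 FPKM (SD, n = 3). Its log2 difference of 0.955 was just past the threshold (limma adjusted p = 0.0494), and of the settings tried only leaving out WT replicate 3 kept the call. The adjusted p was 0.103 after rescaling to the same sum and 0.2 without A2ARKO replicate 2.

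Of 4 tested genes for other prostanoid synthases and reductases, Akr1c18 rose. It encodes an aldo-keto reductase known mainly for the breakdown of progesterone. Akr1c18 read 0.14, 0.03 and 0.02 FPKM in WT against 1.64, 2.52 and 2.92 FPKM in A2ARKO (log2 difference 1.64, limma adjusted p = 0.0106). The WT values rest on about 7, 2 and 1 reads, against about 102 to 186 in A2ARKO, and the gene passed the filter through the A2ARKO libraries alone. Without A2ARKO replicate 2 the adjusted p was 0.0649. Hpgds and Tbxas1, the genes of the hematopoietic prostaglandin D synthase and of thromboxane synthase, were under the filter and are named after their values were seen. Hpgds read 0.19, 1.79 and 0.11 FPKM in WT against 0.01, 0.01 and 0.00 FPKM in A2ARKO. Tbxas1 read 0.07, 0.55 and 0.07 FPKM in WT against 0.03, 0.02 and 0.03 FPKM in A2ARKO. WT replicate 2, the library with the highest leukocyte marker sum, was the highest for both genes. That library also had the highest skeletal muscle, platelet and endothelial marker sums. The part of any of these in the values of Hpgds and Tbxas1 was not tested.

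Of 5 tested genes for other prostanoid receptors and a binding partner, 0 were called by limma, and 0 had an unadjusted p below 0.05. The 2 with the smallest p were Tbxa2r, the gene of the thromboxane receptor, and Ptgfrn, whose product binds the prostaglandin F receptor. Tbxa2r read 2.49, 6.26 and 16.0 FPKM in WT against 6.02, 3.11 and 2.18 FPKM in A2ARKO, with a spread in WT that spans all of A2ARKO but 1 library (log2 difference -0.744, limma adjusted p = 0.502). Ptgfrn was level at 19.9 ± 1.38 and 18.6 ± 1.57 FPKM (log2 difference -0.093, adjusted p = 0.605).

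Of 4 tested genes of the lipoxygenase and epoxide branches, Ephx2 rose and 3 did not pass. Ephx2 encodes soluble epoxide hydrolase, which breaks down epoxides of arachidonic acid, and read 2.69, 2.56 and 2.47 FPKM in WT against 8.10, 5.38 and 4.66 FPKM in A2ARKO. Its log2 difference was 0.950 (limma adjusted p = 0.0447), and every leave-one-out fit lost the call (adjusted p from 0.0569 to 0.152). Alox5ap, which encodes the helper protein of leukotriene synthesis and is named after its values were seen, read 2.32, 21.2 and 1.78 FPKM in WT against 0.68, 0.40 and 0.44 FPKM in A2ARKO. It was lower in every A2ARKO library and did not pass (log2 difference -1.97, limma adjusted p = 0.189). Without WT replicate 2, the library rich in leukocyte markers, its log2 difference shrank to -1.02 and passed (adjusted p = 0.0423). Alox5ap entered the test through the WT libraries alone, the group in which it was high. The leukocyte marker sum was lower in every A2ARKO library too, and its part in the Alox5ap difference was not tested.

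**Figure D4:**
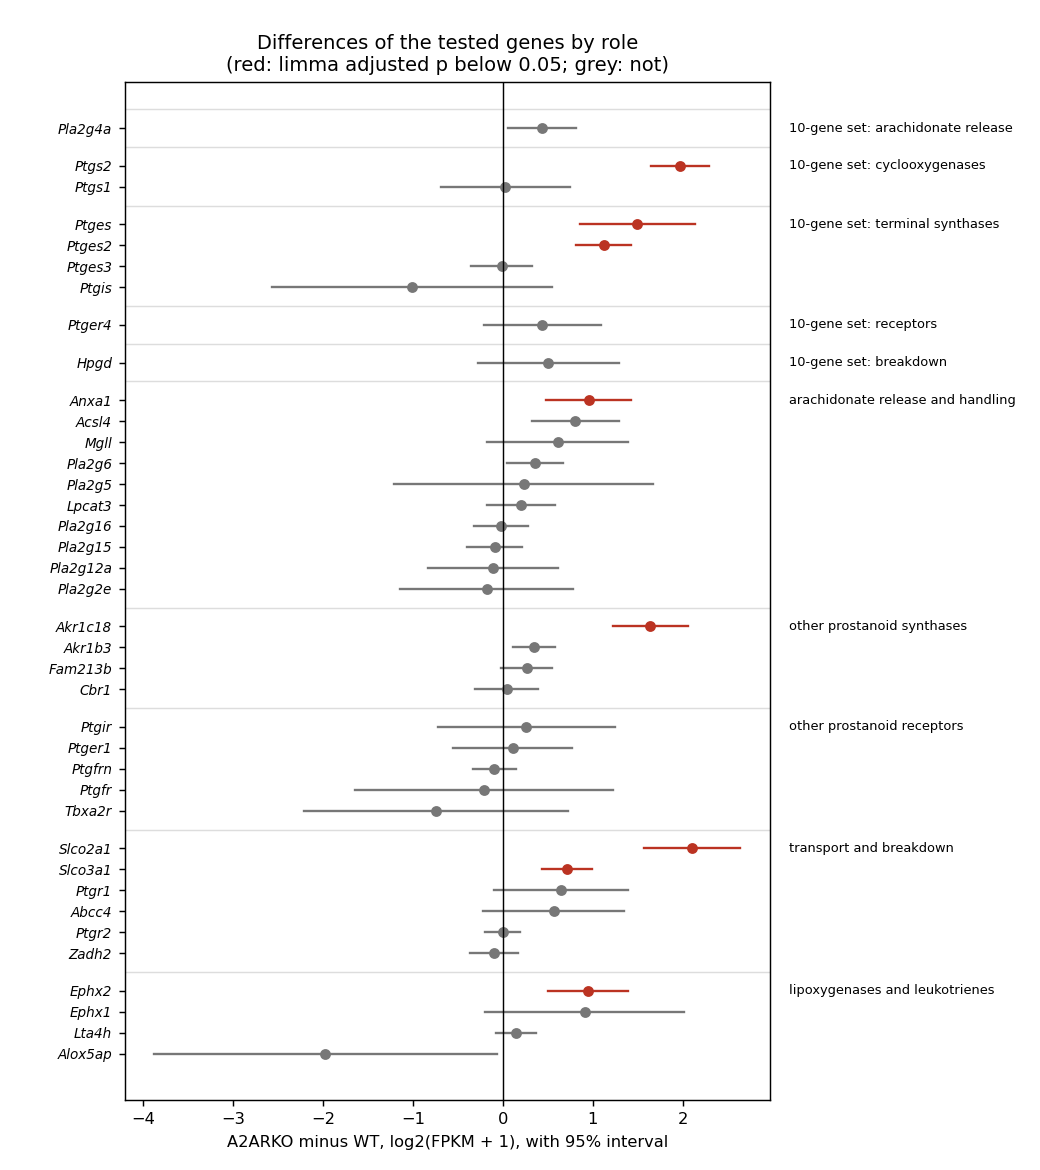
Difference between A2ARKO and WT on the log2(FPKM + 1) scale with its 95% interval for the 38 tested genes, grouped by role, with the 10-gene set at the top. Red marks a limma adjusted p below 0.05, and all 8 red genes lie to the right of 0.

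The genes most like Ptgs2 and Ptges over the 6 libraries were found by Pearson's r of log2(FPKM + 1), as a description without a test. Predicted genes with Gm and Rik names were left out. Genotype, library and depth are shared by all points, so any gene that separates the groups evenly scores high. For Ptgs2 these were G6pdx, the entry enzyme of the pentose phosphate pathway (r = 0.998), Map3k6 (0.998), Ninl (0.995), Cdca4 (0.994) and Apeh (0.994). G6pdx read 42.3, 35.3 and 38.2 FPKM in WT against 69.5, 68.1 and 65.1 FPKM in A2ARKO. For Ptges they were Tinf2 (0.998), Adam17 (0.997), Noc3l (0.995), Cml5 (0.995) and Ctu1 (0.995). Cml5 passed the filter through the A2ARKO libraries alone, at 0.54, 0.92 and 0.83 FPKM in WT against 1.73, 1.66 and 1.63 FPKM in A2ARKO. Adam17, the gene of a protease that sheds membrane proteins, read 14.2, 17.4 and 16.4 FPKM in WT against 21.3, 20.6 and 21.2 FPKM in A2ARKO. The lists do not share a gene. Within WT, Ptgs2 was highest in replicate 1, where Ptges was lowest.

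**Figure D5:**
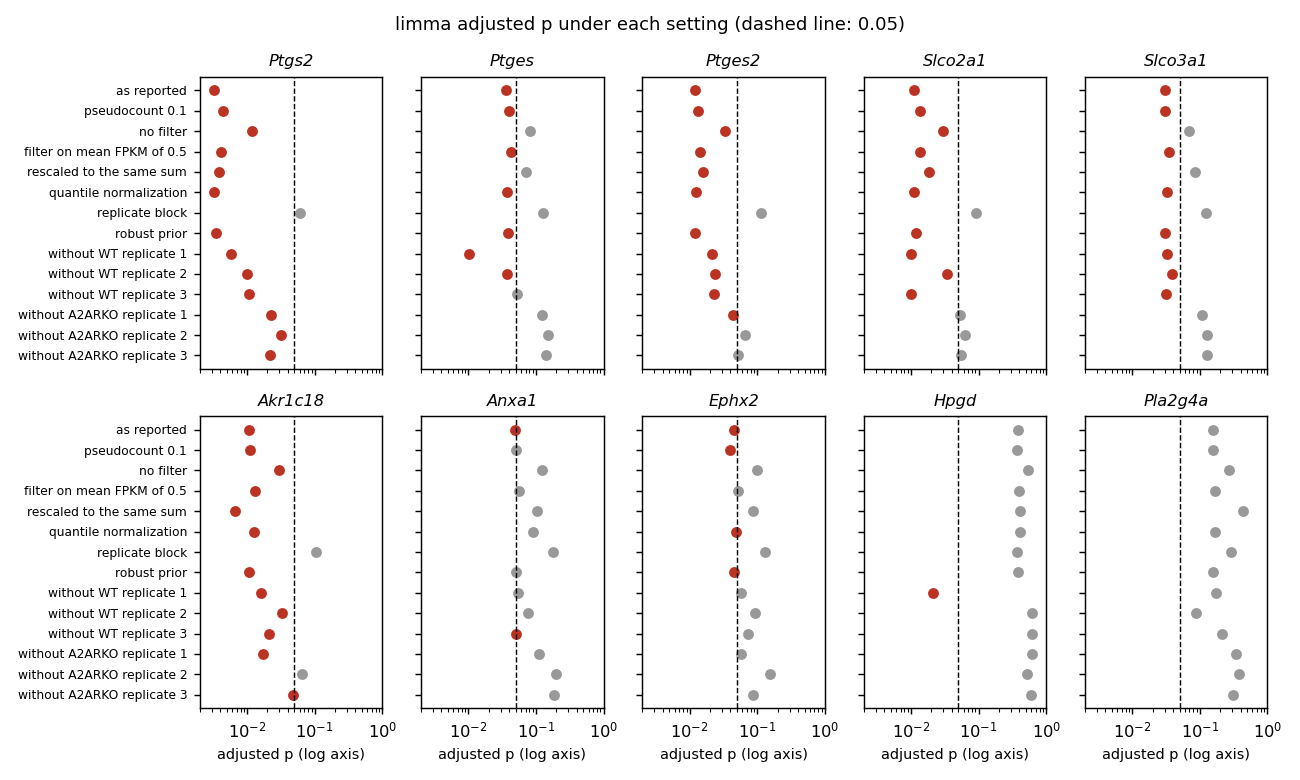
Limma adjusted p (log axis) of 10 genes under each setting, from the analysis as reported through other pseudocounts, filters and scalings to each library left out. Red marks values below 0.05 (dashed line): Ptgs2 stays below it in every setting but the replicate block (0.0607), and Hpgd falls below it only without WT replicate 1 (0.0212).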

How the data were processed

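The authors deposited 1 table of FPKM, rounded to 2 decimals, for 3 WT and 3 A2ARKO libraries. HTSeq and mm10 were used, per the submitters' processing notes. The sources used here do not give the aligner, annotation, gene lengths or strand setting. Columns were assigned to samples by title, and all 6 were used.

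Genes with 1 FPKM or more in at least 3 of 6 libraries (11595) were fitted with limma 3.58.1 in R 4.3.3 on log2(FPKM + 1) (lmFit, then eBayes with trend, two-sided), with Benjamini-Hochberg adjustment over all of them and a threshold of 0.05. The fit was run on simulated data with the same spread in both groups. In the real data the median SD of log2(FPKM + 1) was 0.192 in WT and 0.0967 in A2ARKO, so that run does not cover unequal spread. Alternatives were a pseudocount of 0.1, other filters and scalings, a robust prior, a replicate block and each library left out. The 10 genes and the wider list were chosen with earlier results of these data known. Genes are named by rule: Adora2a; the 10; every listed gene called or, in a role with none, the 2 with the smallest p; the 5 most like Ptgs2 and Ptges; and the genes of the ratios, Ptger1 and Ptger3 among them. Exceptions are marked in the text. The search for the most alike genes left out predicted genes with Gm and Rik names.

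Depth was estimated from low values. Among genes of short exon length, FPKM times length took even steps, and at low levels at least 99.6% of these values came out whole to within 0.1 read. The steps give totals of 41.6 to 58.3 M reads. Reads per gene use exon lengths of GENCODE M21 on GRCm38 and are approximate. Promoters are RefSeq's, and 9 of the 10 genes matched by symbol.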

Additional observations from a re-analysis of the deposited data

How the results depend on the processing

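Of the 10 prostaglandin genes, Ptgs2, Ptges and Ptges2 were called higher with a pseudocount of 0.1 FPKM, a filter on a mean of 0.5 FPKM, quantile normalization and a robust prior, and Ptgs2 and Ptges2 with no filter or after rescaling to the same sum. With each library left out in turn, 1 to 4 of the 10 were called, all higher; Ptgs2 was among them each time. Over all genes, 50 to 900 were then called, and of the wider list 0 to 4, with 0 to 4 higher and 0 to 1 lower. Fewer libraries enter these fits.

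Over all genes, 213 were called with no filter, where more genes are tested, and 348 after rescaling to the same sum. The wider list had 2 genes called with no filter, 2 after rescaling and 3 with the mean filter, all higher. The log2 difference of Adora2a was -2.245 with no filter (limma adjusted p = 0.0533) and ranged from -2.60 to -1.99 with each library left out. With the replicate block, 2 genes were called in all, 0 of the 10 and 0 of the wider list, and Adora2a was at -2.245 (adjusted p = 0.121). The labels do not tie equal replicate numbers to a shared source. Deviations of same-numbered libraries correlated at -0.521, -0.325 and -0.387 over genes. No WT library matched the A2ARKO library of its own number best. Such deviations also carry the make-up of each culture, so they cannot decide whether the numbers pair the libraries. The differences of Ptgs1 and Ptges3, near 0, changed sign: Ptgs1 (-0.279 to 0.313 over the fits that leave out a library) was at -0.0154 with quantile normalization, -0.0789 after rescaling, and -0.0568 and -0.279 without A2ARKO replicate 2 and WT replicate 2, and Ptges3 (-0.109 to 0.116) at 0.0423 and 0.116 without A2ARKO replicate 3 and WT replicate 3. Depth limits Ptger2, Akr1c18 in WT, Ptgs2os and Ptgs2os2, where few reads lie behind a value.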
